A study of Mus musculus with 4 samples.

Results

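The 10 messenger RNAs described here, mt-Nd1, mt-Nd2, mt-Nd4, mt-Nd5, mt-Nd6, mt-Co1, mt-Co2, mt-Co3, mt-Atp6 and mt-Cytb, are encoded by the mitochondrial chromosome. They were chosen by name, through the Ensembl identifiers of the deposited count table, and are 10 of its 45706 genes and 10 of the 13 protein-coding genes of that chromosome. The RNA came from a mouse embryonic stem cell line, V6.5, that carried a lentiviral vector with doxycycline-inducible Cas9 and guide RNAs. The 24 h libraries A and B came from cells given doxycycline for 24 h and labelled KLF KO, and the 0 h libraries A and B from uninduced cells labelled KLF WT. The titles read TKO for all 4 libraries and name KLF4 KO at 24 h. The labels allow for 2 guide designs, one aimed at Klf4 only and one at Klf2, Klf4 and Klf5 together, and do not say which of them each library carried.

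All 4 libraries were grown on irradiated feeder cells with 15% serum, 1000 U/ml LIF, with inhibitors of MEK at 1 µM and of GSK3 at 3 µM. The labels describe clonal populations picked after puromycin selection, and do not say whether replicates A and B were different clones. The drug itself, cutting by Cas9, the loss of KLF protein and the elapsed time came together in the 24 h cells, and their parts cannot be told apart. Fewer cells of a type and less RNA per cell can also not be told apart in such bulk samples.

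The mitochondrial chromosome is a small circle, transcribed from both strands as long precursors by the polymerase POLRMT with the factors TFAM and TFB2M. Cutting at the transfer RNAs that lie between most of the genes releases messenger RNAs, so that their levels after release depend on processing, polyadenylation and decay as well as on transcription. Some neighbours overlap with no transfer RNA between them, as mt-Atp8 and mt-Atp6 do, and mt-Nd4l and mt-Nd4. The proteins they encode are subunits of the respiratory chain and of the ATP synthase, which the cell assembles together with nuclear-encoded subunits. Doxycycline is a tetracycline, a family of antibiotics that bind bacterial ribosomes and can also inhibit protein synthesis in mitochondria.

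Nuclear chromosomes hold copies of mitochondrial DNA, and a read that fits both places cannot be assigned. For each member, every window of 50 bases (the read length) was therefore looked up in the nuclear transcripts of the GENCODE M21 annotation, on both strands. The list made from this search holds 13 nuclear pseudogenes that shared a window with a mitochondrial mRNA, 7 of them in a stretch of chromosome 1 (24611535 to 24616197, GRCm38). Any matches on 1 other nuclear chromosome were left out of the list. In 5 of the 13 the aligned part had 0 differences from the mitochondrial gene. The pairs of windows printed here show the range, with capitals for the bases that differ between the members of a pair. In the first pair, at the start of mt-Co3 and of its copy Gm28437, no base differs. The other pairs are the first windows of mt-Nd2 and mt-Co1 with 4 differences from their copies Gm13339 and Gm13340, where a read can be told apart.
mt-Co3 (chrM:8607-8656, plus strand): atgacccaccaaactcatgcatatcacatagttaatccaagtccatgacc
Gm28437 (chr1:24613922-24613971, minus strand): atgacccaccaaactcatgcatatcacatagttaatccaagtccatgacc
mt-Nd2 (chrM:4725-4774, plus strand): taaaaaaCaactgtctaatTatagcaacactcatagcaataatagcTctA
Gm13339 (chr2:22590201-22590250, minus strand): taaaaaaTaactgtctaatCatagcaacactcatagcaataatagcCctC
mt-Co1 (chrM:5998-6047, plus strand): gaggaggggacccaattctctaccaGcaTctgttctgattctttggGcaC
Gm13340 (chr2:22588928-22588977, minus strand): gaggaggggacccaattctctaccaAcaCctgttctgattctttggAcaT

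The members fell into 7 with large counts and 3 near 0. The 7 were mt-Nd1, mt-Nd2, mt-Nd4, mt-Nd5, mt-Nd6, mt-Cytb and mt-Co1, with 69079 to 609755 counts per library. The cytochrome oxidase subunit gene mt-Co2 (chrM:7013-7696) had 6 and 14 counts in 24 h libraries A and B, against 7 and 0 counts in 0 h libraries A and B. The oxidase subunit gene mt-Co3 (chrM:8607-9390) had 13 and 11 counts in the 24 h libraries, against 7 and 8 counts in the 0 h libraries. The ATP synthase subunit gene mt-Atp6 (chrM:7927-8607) had 1 and 8 counts in the 24 h libraries, against 11 and 11 counts in the 0 h libraries. In these 3 genes 100%, 99.9% and 99.5% of the windows also occurred in a nuclear transcript, in the order named. Their counts can therefore not be read as the level of these mRNAs.

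Among the 7 members with large counts, the share of windows with a nuclear match was 0% in mt-Nd1, mt-Nd6 and mt-Cytb, 7.6% in mt-Nd5, 8.2% in mt-Nd2, 51.1% in mt-Co1 and 62.2% in mt-Nd4. In mt-Nd4 the matching windows were the first 827 of 1329, all in Gm28439 (876 aligned bases, 0 differences). In mt-Co1 the matches lay mainly in Gm29216 on chromosome 1 (430 windows) and in Gm13340 on chromosome 2 (411 windows, 97.6% identity over 1545 bases). Of the chromosome's protein-coding genes that are not members, mt-Nd3 (98% of windows matched) and mt-Nd4l (98.8%) had 0 counts in every library. The small gene mt-Atp8 had 3 and 0 counts in the 24 h libraries and 0 in both 0 h libraries, with no matching window in an annotated transcript. Nuclear copies outside annotated transcripts were not searched. How the authors treated reads with several matches is not given in the sources used here, and the part of the nuclear copies in these low counts was not tested.

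**Figure D1:**
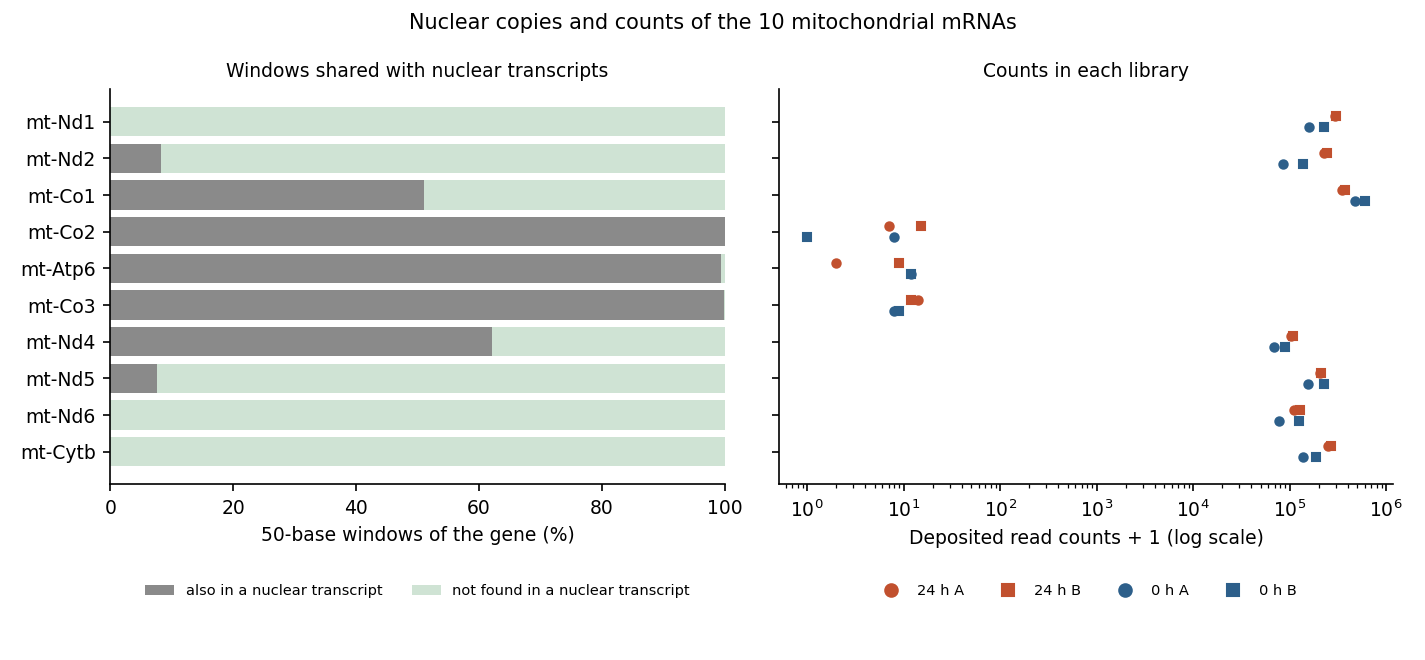
The left panel plots, for the 10 mitochondrial mRNAs in chromosome order, the percent of 50-base windows that also occur in a nuclear transcript (grey) or do not (green). The right panel plots the deposited counts plus 1 in each library on a log scale (red-brown, 24 h; blue, 0 h; circles, replicate A; squares, replicate B). The 3 genes with at least 99.5% of windows shared had at most 14 counts, and the other 7 had at least 69079.

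Few counts were assigned to the listed nuclear copies. The aligned part of Gm28437 has 0 differences from mt-Co3, and that of Gm28438 has 1 from mt-Nd3. Counts of such copies can therefore not be placed in the nucleus with certainty. Summed over the 13 pseudogenes there were 495 and 1807 counts in 24 h libraries A and B, against 447 and 524 counts in 0 h libraries A and B. Gm28437, the copy of mt-Co3, accounted for the high sum in 24 h library B. It had 7 and 1221 counts in the 24 h libraries, against 2 and 15 counts in the 0 h libraries, so that 1 library of 4 stood apart (adjusted p = 0.112 in edgeR's test, described below). Gm13340, a copy of mt-Co1, had 153 and 175 counts in the 24 h libraries, against 194 and 260 counts in the 0 h libraries, where the 24 h values were the lower ones. Gm28438, a copy of mt-Nd3, had 136 and 184 counts in the 24 h libraries, against 79 and 90 counts in the 0 h libraries. Gm13341, a copy of mt-Co2, had 134 and 160 counts in the 24 h libraries, against 108 and 87 counts in the 0 h libraries. Of 6 copies tested 0 passed edgeR's test, 3 had an unadjusted p under 0.05, DESeq2 called 1 and limma voom 0. Of all genes tested, edgeR's test called 6.8%, and 25.8% had an unadjusted p under 0.05. DESeq2 called 5.76% of all genes higher and 5.32% lower, and limma voom 3.87% and 2.16%.

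The libraries held 46031578 to 52412844 counts on genes. The genes that the guides target did not pass edgeR's test described below. Klf4 had 12145 and 11030 counts in 24 h libraries A and B, against 16764 and 12489 counts in 0 h libraries A and B (adjusted p = 0.223). Klf5 had 11223 and 10091 counts in the 24 h libraries, against 21797 and 14306 counts in the 0 h libraries (adjusted p = 0.0567). Klf2 had 7317 and 7134 counts in the 24 h libraries, against 11734 and 6002 counts in the 0 h libraries (adjusted p = 0.58). A small deletion made by Cas9 can leave counts in place, so these counts do not check the labels. The embryonic stem cell markers were present in all 4, for example Pou5f1 (which encodes OCT4) at 527.4 and 529.2 CPM in 24 h libraries A and B, against 845.2 and 689.1 CPM in 0 h libraries A and B. CPM here are counts scaled to a library of 1000000, with TMM factors. In edgeR's test, 3 of 8 such markers were lower at 24 h and 0 higher (Utf1, Zfp42 and Pou5f1). Of all genes tested, 2.65% were called lower and 4.15% higher. Exons of Pou5f1 overlap Gm19553 on the other strand. The summed level of the 8 markers was 3901 and 3958 CPM at 24 h, against 4461 and 4365 CPM at 0 h. Of 15 feeder fibroblast markers 13 were tested, 1 was lower (Pdgfrb) and 0 higher, and the summed level of the 15 was 2200 and 2133 CPM at 24 h, against 2790 and 2165 CPM at 0 h. Of the 15, Dcn and Lum were at no more than 0.119 CPM in any library. The others were present, with Fn1, which stem cells can also express, at 2051 and 1988 CPM at 24 h, against 2611 and 2033 CPM at 0 h. The collagen gene Col1a1 was at 69.1 and 67.4 CPM at 24 h, against 90.1 and 59.6 CPM at 0 h. The part of either marker list in the results was not tested. Library 0 h A stood apart, since its deviation from each gene's mean correlated with GC content across 17927 genes (r = 0.463, against -0.156 and -0.214 in the 24 h libraries and -0.183 in 0 h B; genes are not independent). Deviations of the 4 libraries from a gene's mean sum to 0, so the 4 correlations are tied to each other. The members have 34.1% to 39.9% GC, below the median of 49.9% among genes tested. All 7 with large counts were lower in 0 h A than in 0 h B, and the part of GC content in this was not tested.

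The 10 members together took 3.18% and 3.56% of all counts in 24 h libraries A and B (95% Wilson intervals 3.176% to 3.186% and 3.55% to 3.561%). They took 2.21% and 3.28% in 0 h libraries A and B (2.207% to 2.215% and 3.277% to 3.287%). These intervals cover counting error only. Library 0 h B lay between the 24 h libraries, and 0 h A lay below all others. The exact permutation test over the 4 libraries (2-sided) gave p = 0.667 for the difference, where the smallest p that 2 libraries against 2 allow is 0.333. Without 0 h A the mean difference, 24 h minus 0 h, was 0.0861 percentage points, and with all libraries it was 0.622. It was 1.158 without 0 h B, 0.809 without 24 h A and 0.435 without 24 h B.

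The make-up of that sum differed more between the groups than within them, for the members with large counts other than mt-Nd5 and mt-Nd6. The shares of a library are tied to each other, since a lower share of mt-Co1 raises those of the others. The mRNA of mt-Co1, the catalytic core subunit of cytochrome oxidase, made up 22.7% and 22.7% of the members' counts in 24 h libraries A and B, against 41.3% and 38.0% in 0 h libraries A and B. The mRNA of mt-Nd2, a membrane subunit of complex I, made up 14.7% and 14.8% in the 24 h libraries, against 7.28% and 8.51% in the 0 h libraries. That of mt-Nd1, another membrane subunit of complex I, made up 19.2% and 18.7% in the 24 h libraries, against 13.6% and 14.2% in the 0 h libraries. These shares need no scaling between libraries, and the 24 h and 0 h values of all 3 genes were further apart than the replicates of either group.

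The mRNA of mt-Cytb, the cytochrome b subunit of complex III, made up 16.2% and 16.3% of the members' counts in the 24 h libraries, against 11.8% and 11.8% in the 0 h libraries. That of mt-Nd4, a complex I subunit, made up 6.67% and 6.62% in the 24 h libraries, against 5.96% and 5.55% in the 0 h libraries. For mt-Nd5 the shares were 13.3% and 13.0% in the 24 h libraries, against 13.3% and 14.1% in the 0 h libraries. For mt-Nd6 they were 7.2% and 7.89% in the 24 h libraries, against 6.76% and 7.8% in the 0 h libraries. The mt-Nd4 values of the groups did not overlap, those of mt-Nd5 nearly met, and those of mt-Nd6 did overlap. The exact permutation test (2-sided) gave p = 0.333, the smallest this design allows, for 8 of the 10 members (adjusted over the 10, 0.417) and 0.667 for mt-Nd6 and mt-Co2. This test can therefore not pass 0.05, and the shares are given as values.

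**Figure D2:**
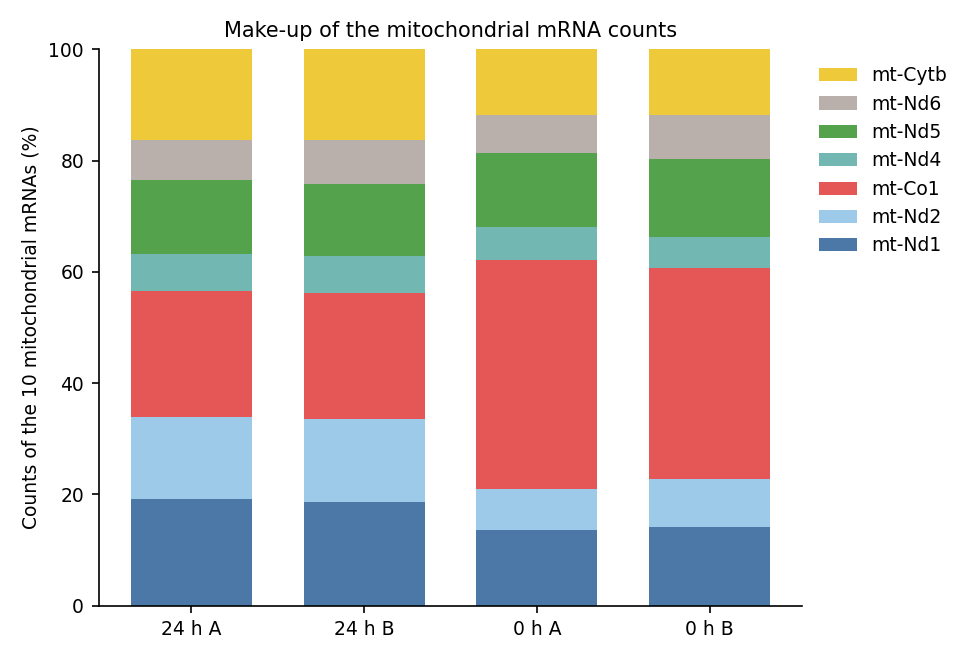
Stacked bars give the percent of the 10 members' summed counts held by each of the 7 members with large counts, in chromosome order from mt-Nd1 at the bottom to mt-Cytb at the top, for 24 h libraries A and B and 0 h libraries A and B. The red band, mt-Co1, spans 22.7% in both 24 h libraries, against 41.3% and 38.0% in the 0 h libraries.

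Ratios within a library show the same shift for each transcript in turn. There were 0.649 and 0.652 counts of mt-Nd2 per count of mt-Co1 in 24 h libraries A and B, against 0.176 and 0.224 in 0 h libraries A and B, a 3.25-fold difference of the means. For mt-Cytb the ratio was 0.714 and 0.719 in the 24 h libraries, against 0.285 and 0.309 in the 0 h libraries, and for mt-Nd1 it was 0.845 and 0.823 in the 24 h libraries, against 0.329 and 0.373 in the 0 h libraries. In these 3 genes the replicates of a group lay close together and the groups far from each other. The ratio of mt-Nd4 to mt-Co1 was 0.294 and 0.292 in the 24 h libraries, against 0.144 and 0.146 in the 0 h libraries. That of mt-Nd5 was 0.585 and 0.575 in the 24 h libraries, against 0.322 and 0.372 in the 0 h libraries. For mt-Nd6 it was 0.317 and 0.348 at 24 h, against 0.164 and 0.205 at 0 h. All 6 ratios to mt-Co1 were higher in both 24 h libraries than in either 0 h library (exact permutation p = 0.333 for each, the smallest possible), and the differences of the means ran from 1.67-fold for mt-Nd5 to 3.25-fold for mt-Nd2. The 6 ratios share 1 denominator and are not separate results.

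**Figure D3:**
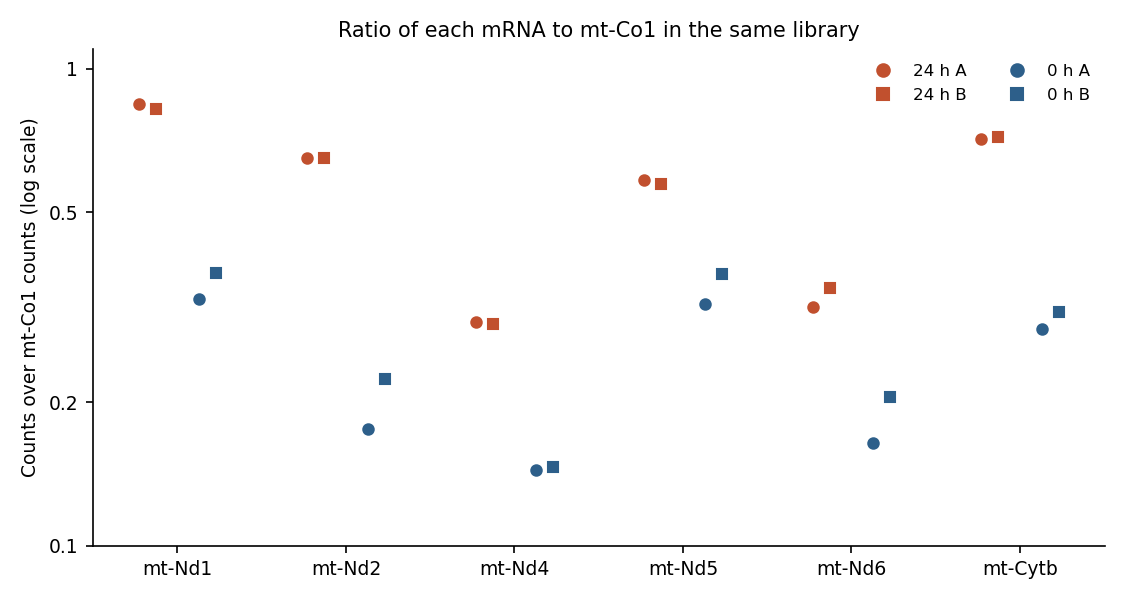
Each point is the count of a mitochondrial mRNA divided by that of mt-Co1 in the same library, on a log scale (red-brown, 24 h; blue, 0 h; circles, replicate A; squares, replicate B). In each of the 6 genes both 24 h points lie above both 0 h points, with mt-Nd2 furthest apart (0.649 and 0.652 at 24 h, against 0.176 and 0.224 at 0 h).

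The shift was not confined to mt-Co1. With mt-Nd5 as the denominator, mt-Nd2 stood at 1.11 and 1.13 in the 24 h libraries, against 0.546 and 0.602 in the 0 h libraries, and mt-Cytb at 1.22 and 1.25 in the 24 h libraries, against 0.885 and 0.831 in the 0 h libraries. Within complex I, mt-Nd2 over mt-Nd1 was 0.768 and 0.792 at 24 h, against 0.536 and 0.6 at 0 h. Of the 21 pairs of the 7 members, 3 had a difference of the mean ratios below the larger gap between replicates. The ratio of mt-Nd1 to mt-Cytb was 1.18 and 1.14 at 24 h, against 1.15 and 1.21 at 0 h, and that of mt-Nd6 to mt-Nd5 was 0.542 and 0.605 at 24 h, against 0.508 and 0.552 at 0 h. The ratio of mt-Nd4 to mt-Nd6 was 0.927 and 0.839 at 24 h, against 0.882 and 0.711 at 0 h. The groups overlapped in these 3 ratios and in no other of the 21. The 21 ratios come from 7 values per library and are not independent. Of all genes tested, 29.3% had both 24 h CPM values above both 0 h values, and 29.5% had both below. The share among ratios of other genes was not worked out. By position, mt-Nd1 (chrM:2751-3707) and mt-Cytb (chrM:14145-15288) lie at opposite ends of the row of protein-coding genes. The next protein-coding gene before mt-Co1 (chrM:5328-6872) is mt-Nd2 (chrM:3914-4951), so that the largest difference in ratio was between neighbours.

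Levels between genes can be compared only per length, here as CPM per 1000 windows without a nuclear match. That scale takes reads from matched windows as not counted, which the sources used here do not state. On that scale mt-Co1 was the highest of the 7 in every library, at 9665 and 10850 in 24 h libraries A and B, against 12940 and 17160 in 0 h libraries A and B. It was followed by mt-Nd1 in both 24 h libraries (6578 and 7188) and in 0 h A (3425), while in 0 h B mt-Nd6 (5477) stood above mt-Nd1 (5154). The place of mt-Nd2 changed most. It was the third and the fourth of the 7 in 24 h libraries A and B (5052 and 5696), against the seventh and the sixth in 0 h libraries A and B (1836 and 3092). The lower places were held by mt-Cytb, mt-Nd4 and mt-Nd5 at 24 h, with mt-Nd5 last at 2518 and 2782. At 0 h the ranges of all members but mt-Co1 overlapped with a neighbour, so that their order there is not fixed by these libraries. At 24 h mt-Nd2 and mt-Nd6 (4763 and 5875) also overlapped, as did mt-Nd6 with mt-Cytb (4607 and 5211) and mt-Cytb with mt-Nd4 (4133 and 4614). The order depends on the scale. Per base of the whole gene, mt-Nd1 (5973 and 6526 CPM over 957 bases) stood above mt-Co1 in both 24 h libraries. There mt-Co1 had 7065 and 7931 CPM over 1545 bases. On the whole-gene scale mt-Nd4, not mt-Nd5, was last at 24 h.

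Change in level was tested with edgeR's quasi-likelihood test over 18005 genes, with Benjamini-Hochberg adjustment over all of them and a threshold of 0.05. The test called 748 genes higher at 24 h (4.15%) and 477 lower (2.65%), 6.8% in either direction. With the trends on GC content and length removed, 1863 genes were called higher and 3435 lower, and with libraries scaled to the members' summed counts 168 were called higher and 331 lower. Of the 10 members 9 passed the filter on low counts and mt-Co2 did not, while mt-Co3 and mt-Atp6 passed it with at most 13 counts. Of the 9, 1 was higher (mt-Nd2) and 0 were lower, while 5 of the 9 were under 0.05 before adjustment, as were 25.8% of all genes tested. The Wald test of DESeq2 called 3 members higher and 1 lower (of all genes, 5.76% higher and 5.32% lower), and limma voom 1 higher and 0 lower (3.87% and 2.16% of all genes). The median log2 fold change of the 9 was 0.46, against -0.01 over all genes tested, with 7 positive and 2 negative. The 9 share 1 chromosome and its precursors and are not independent of each other. The labels do not say that the replicates came from separate cultures, so these p-values measure the spread between libraries, which may be technical.

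In complex I, mt-Nd2 was at 4587 and 5172 CPM in 24 h libraries A and B, against 1667 and 2808 CPM in 0 h libraries A and B. Both 24 h values lay above both 0 h values, and the level rose 2.18-fold, to 4880 ± 413 CPM at 24 h against 2237 ± 807 CPM at 0 h (SD, n = 2 each; log2 fold change 1.13 with SE 0.22, edgeR's adjusted p = 0.032). The mRNA of mt-Nd1 was at 5973 and 6526 CPM in the 24 h libraries, against 3110 and 4680 CPM in the 0 h libraries. Its groups did not overlap either, but its log2 fold change of 0.68 (SE 0.18) had an adjusted p of 0.0713 in edgeR's test. The mRNA of mt-Nd4 (chrM:10167-11544) was at 2075 and 2316 CPM in the 24 h libraries, against 1365 and 1831 CPM in the 0 h libraries, a log2 fold change of 0.46 with SE 0.15 (edgeR's adjusted p = 0.114).

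For mt-Nd5 (chrM:11742-13565) the levels were 4130 and 4562 CPM in the 24 h libraries, against 3051 and 4664 CPM in the 0 h libraries, which enclose them. The log2 fold change of mt-Nd5 was 0.17 with SE 0.19 (edgeR's adjusted p = 0.591). The gene mt-Nd6 (chrM:13552-14070), the only member read from the other strand of the chromosome, was at 2239 and 2761 CPM in the 24 h libraries, against 1549 and 2574 CPM in the 0 h libraries. The groups overlapped, and the log2 fold change of mt-Nd6 was 0.28 with SE 0.23 (edgeR's adjusted p = 0.469). Without 0 h A these 2 log2 fold changes were -0.10 and -0.04.

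The libraries were made with a stranded kit, but the strand setting of the counting is not given in the sources used here. Of 407 genes that lie wholly within exons on the other strand, 381 had 0 counts in every library. Summed over the libraries, 10 of the 407 had at least 100 counts, and the highest had 21823. For genes within exons of 1 gene on the same strand, 474 of 516 had 0 counts. There 15 had at least 100, and the highest had 1074. Where the gene on the other strand had at least 10000 counts, 51 of 57 had 0, and the highest had 161. These counts of nested genes do not settle the setting. Whether the counts of mt-Nd6 hold RNA of the opposite strand, which carries the precursor of mt-Nd5 and mt-Cytb, was not tested.

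In complex III, mt-Cytb was at 5044 and 5706 CPM in 24 h libraries A and B, against 2701 and 3878 CPM in 0 h libraries A and B. The groups did not overlap, and the log2 fold change of 0.71 (SE 0.17) had an adjusted p of 0.0533 in edgeR's test. In complex IV, mt-Co1 was at 7065 and 7931 CPM in the 24 h libraries, against 9461 and 12550 CPM in the 0 h libraries. The means were 7498 ± 612 CPM at 24 h and 11000 ± 2180 CPM at 0 h (SD, n = 2 each). It was the only one of the 7 with both 24 h values below both 0 h values (log2 fold change -0.55 with SE 0.14, edgeR's adjusted p = 0.0659). Of all genes tested 29.5% had both 24 h values below, and 29.3% had both above, as 4 of the 7 members did, so that such an order alone is common in these libraries. Without 0 h A its log2 fold change was -0.74, and that of mt-Nd2 0.80. Without 0 h B they were -0.34 and 1.55. With the trends on GC content and length removed from each library, they were -0.74 and 0.99.

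**Figure D4:**
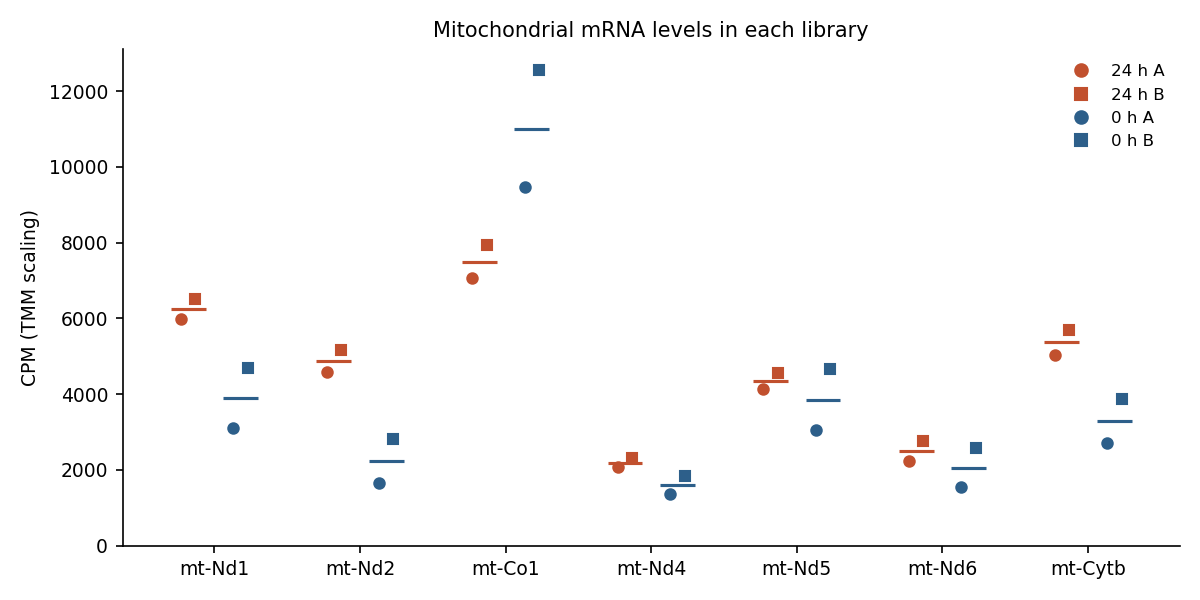
Points give the CPM (counts scaled to a library of 1000000, with TMM factors) of the 7 mitochondrial mRNAs with large counts in each library, and bars the mean of each group of 2 (red-brown, 24 h; blue, 0 h; circles, replicate A; squares, replicate B). In mt-Nd1, mt-Nd2, mt-Nd4 and mt-Cytb both 24 h points lie above both 0 h points, in mt-Co1 both lie below, and in mt-Nd5 and mt-Nd6 the groups overlap. Of all genes tested, 29.3% had both 24 h values above and 29.5% had both below.

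The number of members called depended on the libraries in the fit. Without 0 h A, 5 members were called higher (mt-Nd1, mt-Nd2, mt-Nd4, mt-Cytb and mt-Co2, the last with at most 14 counts) and 2 lower (mt-Co1 and mt-Nd5), in a fit that called 16.5% of all genes higher and 15.8% lower. Without 0 h B, 6 were called higher and 1 lower (mt-Co1), in a fit that called 23.2% of all genes higher and 27.0% lower. Without 24 h A, 3 were called higher and 0 lower, in a fit that called 1.97% of all genes higher and 1.05% lower. Without 24 h B, 1 was called higher and 1 lower, with 1.81% and 0.899% of all genes. Such a fit has a group of 1 library, which is taken to vary like the other group. In each of these fits, mt-Nd2 was among the members called higher.

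The replicates differed mainly in the level of all members together. Within the 0 h group, library B exceeded library A by 1.33-fold (mt-Co1) to 1.68-fold (mt-Nd2) in CPM. Within the 24 h group, B exceeded A by 1.09-fold (mt-Nd1) to 1.23-fold (mt-Nd6). In the share of the members' counts, the log2 differences between 0 h A and 0 h B ran only from -0.23 (mt-Nd2) to 0.12 (mt-Co1), and between 24 h A and 24 h B from -0.13 (mt-Nd6) to 0.04 (mt-Nd1). With libraries scaled to the members' summed counts, mt-Nd2 had a log2 fold change of 0.90 and mt-Co1 of -0.81, and 0 members passed edgeR's test in either direction (adjusted p = 0.0895 for mt-Nd2). This scaling moved the median of all genes by -0.28 on the log2 scale, so that it gives changes relative to the mitochondrial mRNAs as a whole, and mt-Nd5 then had a log2 fold change of -0.06.

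The mitochondrial ribosomal RNAs, which are read from the same strand as most members, had lower counts than the 7 mRNAs in these libraries, made with an mRNA kit. The small ribosomal RNA mt-Rnr1 had 15841 and 17263 counts in the 24 h libraries, against 17007 and 29362 counts in the 0 h libraries (log2 fold change -0.45, adjusted p = 0.292 in edgeR's test). The large ribosomal RNA mt-Rnr2 had 14008 and 14991 counts in the 24 h libraries, against 13218 and 22952 counts in the 0 h libraries (log2 fold change -0.28, adjusted p = 0.501 in edgeR's test). Library 0 h B held the highest value of both, and without it the log2 fold changes were 0.03 for mt-Rnr1 and 0.20 for mt-Rnr2. Without 0 h A they were -0.81 for mt-Rnr1 and -0.65 for mt-Rnr2. With the trends on GC content and length removed both were called lower, as were 3435 of all genes tested. The result thus depended on the libraries and the processing, and no direction is given. Of the 22 mitochondrial transfer RNAs 9 had 0 counts in every library, and the highest count was 472.

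Nuclear genes that act on mitochondrial DNA and RNA were mostly not past the test. Over the 10 nuclear lists of mitochondrial function, 1 of 125 genes tested was higher and 1 lower, and 23 (18.4%) had an unadjusted p under 0.05, against 25.8% of all genes tested (median log2 fold change -0.04). Of 21 genes of mitochondrial RNA processing and turnover 1 was lower and 0 higher. It was Grsf1, which encodes an RNA-binding protein of mitochondrial RNA granules, at 148.7 and 153.9 CPM in 24 h libraries A and B, against 233.5 and 244.7 CPM in 0 h libraries A and B. The groups were further apart than their replicates and Grsf1 fell (log2 fold change -0.66 with SE 0.10, edgeR's adjusted p = 0.0138), with -0.70 without 0 h A and -0.63 without 0 h B. Of 14 mitochondrial translation factors 1 was higher and 0 lower. It was Mss51, named after a yeast activator of Cox1 translation, at 3.663 and 3.398 CPM in the 24 h libraries, against 1.641 and 2.057 CPM in the 0 h libraries (log2 fold change 0.93 with SE 0.22, edgeR's adjusted p = 0.0491).

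Of 11 genes of mitochondrial transcription 0 passed edgeR's test. Polrmt, the polymerase, had the smallest p, with 46.63 and 45.75 CPM in the 24 h libraries, against 75.17 and 50.64 CPM in the 0 h libraries (log2 fold change -0.45, and -0.13 without 0 h A), so that library 0 h A held the high value. Mrpl12, a ribosomal protein reported to bind the polymerase, had 76.12 and 74.18 CPM at 24 h, against 125.9 and 80.28 CPM at 0 h, again with 0 h A high. Of 13 genes of mitochondrial DNA maintenance 0 passed, with Primpol (0.46) and Mpv17 (0.36) of smallest p. Of 11 regulators of mitochondrial biogenesis tested 0 passed, with Gabpb1 (0.37) and Pprc1 (-0.49). Of 15 genes of the mitochondrial stress response 0 passed, with Atf5 (0.43) and Htra2 (-0.54). The values in brackets are log2 fold changes, and except for Polrmt and the genes of the paragraph above, each of these genes shares exonic bases with another gene, so that its counts are uncertain.

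Nuclear-encoded partners of the members did not pass the test. Of 10 complex I subunits 0 passed (median log2 fold change -0.19), with Ndufs7 (-0.47) and Ndufv1 (-0.35) of smallest p. Of 8 complex III subunits 0 passed (median -0.17), with Uqcrfs1 (-0.26) and Uqcrc1 (-0.35). Of 12 ATP synthase subunits 0 passed (median -0.07), with Atp5b (-0.30) and Atp5e (0.26). Of 10 complex IV subunits 0 passed (median 0.01). Among them Cox5a, whose exons overlap Gm26631 on the other strand, was at 145.8 and 148.2 CPM in the 24 h libraries, against 270.4 and 195.9 CPM in the 0 h libraries (log2 fold change -0.67, adjusted p = 0.0508 in edgeR's test), and Cox5b had a log2 fold change of -0.15. Over the 145 genes tested in these 10 lists and the 2 lists of cell type markers, edgeR's test called 1 higher and 5 lower. Of all genes tested it called 4.15% higher and 2.65% lower. Counts with a library left out, where a group holds 1 library, are given at the end beside those over all genes. DESeq2 called 3 of the 145 higher and 8 lower, against 5.76% and 5.32% of all genes. With limma voom 0 were higher and 5 lower, against 3.87% and 2.16% of all genes.

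**Figure D5:**
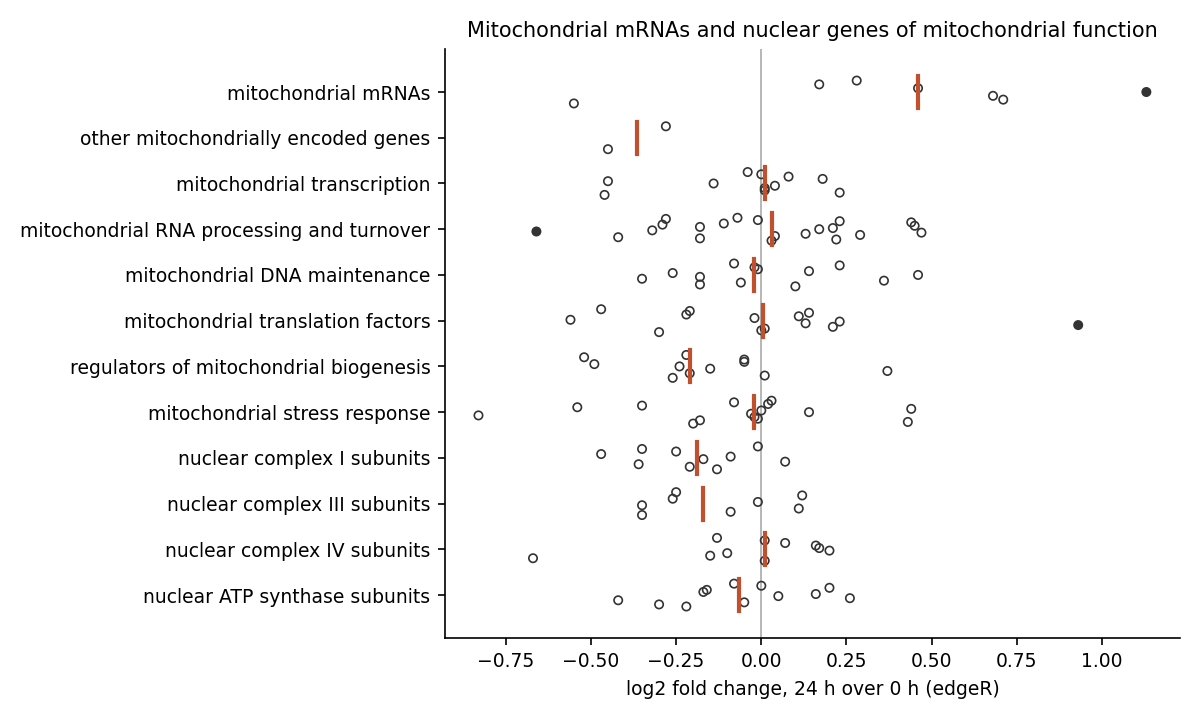
Each circle is the log2 fold change (24 h over 0 h) of 1 gene in edgeR's fit, filled where its adjusted p was under 0.05, and short red-brown bars are medians. The mitochondrial mRNAs (the 7 with large counts) have a median of 0.46 and 1 filled circle (mt-Nd2), and the 10 nuclear lists have medians from -0.21 to 0.03 with 2 filled circles, Grsf1 and Mss51. The other mitochondrially encoded genes are mt-Rnr1 and mt-Rnr2.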

How the data were processed

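RNA-seq was measured in 4 libraries, 2 at 24 h and 2 at 0 h. The values are whole-number counts per Ensembl gene that the authors deposited in 1 table. The submitters' processing notes name TopHat2, HTSeq, DESeq and the build mm10, without roles or versions, and the labels' protocols give a stranded mRNA kit and single reads of 50 bases. Symbols, coordinates and sequences came from GENCODE M21 (GRCm38). It held no entry for 563 identifiers with 0.107% of the counts.

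Counts were fitted as deposited over all genes with edgeR 4.0.16 (R 4.3.3; quasi-likelihood test, TMM scaling, filterByExpr with a minimum count of 10 and total of 15, group as the only term), with Benjamini-Hochberg adjustment over the 18005 genes kept and a threshold of 0.05. Each SE is the absolute log2 fold change divided by the square root of the test's F statistic, and was not fitted separately. The pipeline was tested on simulated data. Shares and ratios were compared with exact permutation tests over libraries. Depth of 46031578 to 52412844 counts makes 3 counts equal to 0.0572 to 0.0652 CPM, a floor that covers counting error only.

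Alternatives were other scalings, no filter, DESeq2 1.42.0, limma 3.58.1 (voom), the replicate letter as a block, offsets that remove trends on GC content and length (mgcv 1.9.3), each library left out, other denominators, and, chosen after seeing the data, counts per window without a nuclear match and ratios without each library. All 10 members were named, with the genes past the test in each other list, up to 4, or else the 2 of smallest p, and the 3 nuclear copies with most counts (4 with a tie). The members and lists were chosen with earlier results of these data known. No set test was made.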

Additional observations from a re-analysis of the deposited data

How the results depend on the processing

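Of the 10 members, the count called higher at 24 h (1) became 2 with upper quartile scaling or library size only, 0 with libraries scaled to the members' sum, 4 with no filter or with the trends on GC content and length removed, and 3 with DESeq2. The count lower (0) became 1 with no filter, with DESeq2 and with the GC and length trends removed. For all genes, 748 higher and 477 lower became 168 higher with libraries scaled to the members' sum, 1230 and 1359 with no filter, 957 lower with DESeq2, and 1863 and 3435 with the GC and length trends removed. Of the 145 genes of the 12 nuclear lists, 1 higher and 5 lower became 2 higher with upper quartile scaling or library size only, 0 higher and 2 lower with libraries scaled to the members' sum, 2 and 12 with no filter, 3 and 8 with DESeq2, 0 higher with limma voom, and 10 and 36 with the GC and length trends removed. Of the nuclear copies, 0 called became 1 with libraries scaled to the members' sum or with DESeq2, 2 with no filter and 3 with the GC and length trends removed. The cause was not tested.

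The replicate letters pair no samples that the labels describe as shared, and deviations of same-lettered libraries correlated at 0.0525. With the replicate block, 4 members were higher and 1 lower, 1658 and 1595 of all genes, 8 and 15 of the nuclear list genes, and 2 nuclear copies were called. With the block and the GC and length trends removed these were 5 and 1, 2244 and 4118, 14 and 49, and 3.

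Leaving out each library in turn gave 1 to 6 members higher and 0 to 2 lower, 338 to 4352 of all genes higher and 168 to 5064 lower, 0 to 35 nuclear list genes higher and 1 to 61 lower, and 0 to 4 nuclear copies. The log2 fold change of mt-Nd5 (0.17) was -0.0613 with libraries scaled to the members' sum, -0.0007 with the GC and length trends removed, and -0.10 without 0 h A (range over the libraries left out -0.10 to 0.51). That of mt-Nd6 (0.28) ran from -0.0436 (without 0 h A) to 0.69. The difference in the share of mt-Nd6 (0.262 percentage points) was -0.486 per kb of gene length, and ran from -0.26 to 0.784 with libraries left out (-0.0875 without 24 h B). The log2 change in ratio moved with the denominator: over mt-Nd5 it was 0.51 for mt-Nd1, 0.97 for mt-Nd2, 0.27 for mt-Nd4, 0.11 for mt-Nd6 and 0.53 for mt-Cytb, and over mt-Cytb it was -0.0186 for mt-Nd1, 0.44 for mt-Nd2, -0.26 for mt-Nd4, -0.53 for mt-Nd5 and -0.41 for mt-Nd6. Over mt-Co1 every one of the 6 stayed positive with each library left out, from 0.64 (mt-Nd5) to 1.89 (mt-Nd2). The call of mt-Nd2 held in 14 of 15 alternatives, and failed with libraries scaled to the members' sum (edgeR's adjusted p = 0.0895). The alternatives use the same libraries and are not independent. They include the fits with a library left out, which have a group of 1 library, and the replicate block. With 2 libraries a group the exact permutation tests cannot go below 0.333.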
